A study of Mus musculus with 2 samples.

Results

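Melanocyte pigment and lineage genes were examined in cultures of newborn mouse keratinocytes. The 10 members were chosen by gene symbol: the melanin enzymes Tyr, Tyrp1 and Dct, the melanosome proteins Pmel, Mlana and Gpnmb, the receptors Kit and Ednrb, and the transcription factors Mitf and Sox10. They are represented by 21 of the 45101 probe sets of the array, and by 10 of the 18193 genes that a probe set with a single gene symbol names. A probe set gathers several short probes for a transcript into 1 signal.

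The series compares 2 primary cultures, each hybridised to 1 Affymetrix array. The first culture came from K5Cre+ MED1flox/flox mice, called MED1epi-/- and described as keratinocyte-specific MED1 null. The second came from controls, which the title calls MED1flox/flox and the source wild-type. Both cultures were from C57BL/6 newborns, whose epidermis was separated from the dermis with dispase and trypsin. Cre was driven by a keratin 5 promoter, which is active in basal keratinocytes, and whether it acted in other cells of the culture was not measured. How many mice went into each culture is not given in the sources used here. With 1 array per group there is no replicate, no test and no p-value, and every value is only as precise as a single hybridisation.

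Melanocytes are pigment cells of neural crest origin that sit among the basal keratinocytes of the epidermis and of the hair follicle. They build melanin inside melanosomes, which are organelles related to lysosomes, and pass these to keratinocytes. MITF is the central transcription factor of the lineage. It is activated by SOX10, it acts on the pigment genes through a short promoter element called the M-box, and the receptors KIT and EDNRB signal to the cells during their migration and survival. MED1 belongs to the Mediator complex, through which transcription factors reach RNA polymerase II.

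Several facts of the whole series bear on each direction below. Med1 signal was higher, not lower, on the MED1-null-labelled array, at 1039 against 462.7 on the control array, and all 7 of its probe sets were higher there. The probe sets' place relative to the deleted part is not known from the sources used here, so these values check nothing about the deletion, and every direction given is taken from the label. The cultures also differed in sex-linked transcripts. Xist read 55.7 on the MED1-null-labelled array against 5461 on the control array, and the Y-linked Eif2s3y read 2164 against 4.2. Sex and genotype label therefore cannot be told apart. The authors' signals were on a linear scale, and values under 67.7, the median of all probe sets, were set to that floor ahead of the log2 step. A ratio with 1 array below the floor is a bound, written as "at least". The pooled SD of the log2 ratio between probe sets of the same gene was 0.31, or 1.24-fold, over 4916 genes, and it covers neither animals nor cultures.

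The M-box sequences of the 3 enzymes of the tyrosinase family are shown because the element is what these pigment genes have in common. RefSeq promoters of build GRCm38.p6 were found for 7 of the 10 members (Tyr, Tyrp1, Dct, Kit, Mitf, Gpnmb and Ednrb), with several starts for some. Each line below gives 90 bases, read 5′ to 3′ on the strand of the gene, that lie before the gene start. Capitals mark the core motif TCATGTG. The Tyr stretch is chr7:87493513-87493602 on the minus strand, that of Tyrp1 is chr4:80834123-80834212 on the plus strand, and that of Dct is chr14:118052349-118052438 on the minus strand. The Gpnmb stretch, chr6:49036428-49036517 on the plus strand, ends at the gene start and is shown because Gpnmb had the lowest ratio of the members.
Tyr: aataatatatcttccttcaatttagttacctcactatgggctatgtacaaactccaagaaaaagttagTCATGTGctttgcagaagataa
Tyrp1: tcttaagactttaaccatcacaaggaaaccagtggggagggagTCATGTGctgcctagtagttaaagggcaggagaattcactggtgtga
Dct: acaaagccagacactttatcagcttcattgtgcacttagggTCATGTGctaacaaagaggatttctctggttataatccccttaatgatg
Gpnmb: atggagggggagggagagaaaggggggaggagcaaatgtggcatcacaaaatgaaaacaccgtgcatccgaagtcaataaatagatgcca
The core begins 22 bases before the start of Tyr, 47 before that of Tyrp1 and 151 before that of Dct, and Dct has a second match, on the other strand, 232 bases before its start. In Tyr and Tyrp1 the core lies within the longer form AGTCATGTGCT. On either strand of the 250 bases before the start, 7 of 32851 promoters held the longer form (0.0213%), and 1068 held the core (3.25%), which every longer form contains. The promoter windows of Kit, Mitf, Gpnmb and Ednrb held no TCATGTG, and none of the 7 members had CACGTG, an E-box that 6.02% of promoters held. A match of letters is a description of this window only.

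All 10 members were measured, that is, at least 1 array reached the floor with the brightest probe set of the gene, by mean signal. Kit and Gpnmb were lower on the MED1-null-labelled array, each by about 3-fold. Tyrp1, Mlana and Pmel were lower by nearly the same modest factor, close to 1.39-fold each. Dct, Mitf and Ednrb were closer to equal and Sox10 was equal within 1%, while the Tyr probe sets went both ways. Of the 10 members, 2 were at least 2-fold lower and none was at least 2-fold higher, against 2.23% and 1.63% of the 11621 measured genes. The members' median log2 ratio was -0.33 and their mean -0.48, beside a median of 0.06 over all measured genes. By the probe set used, 8 members had a ratio below 0 and 2 above, where 42.9% of all measured genes lay below 0. In a mixed culture, fewer melanocytes and less RNA per melanocyte cannot be told apart.

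**Figure D1:**
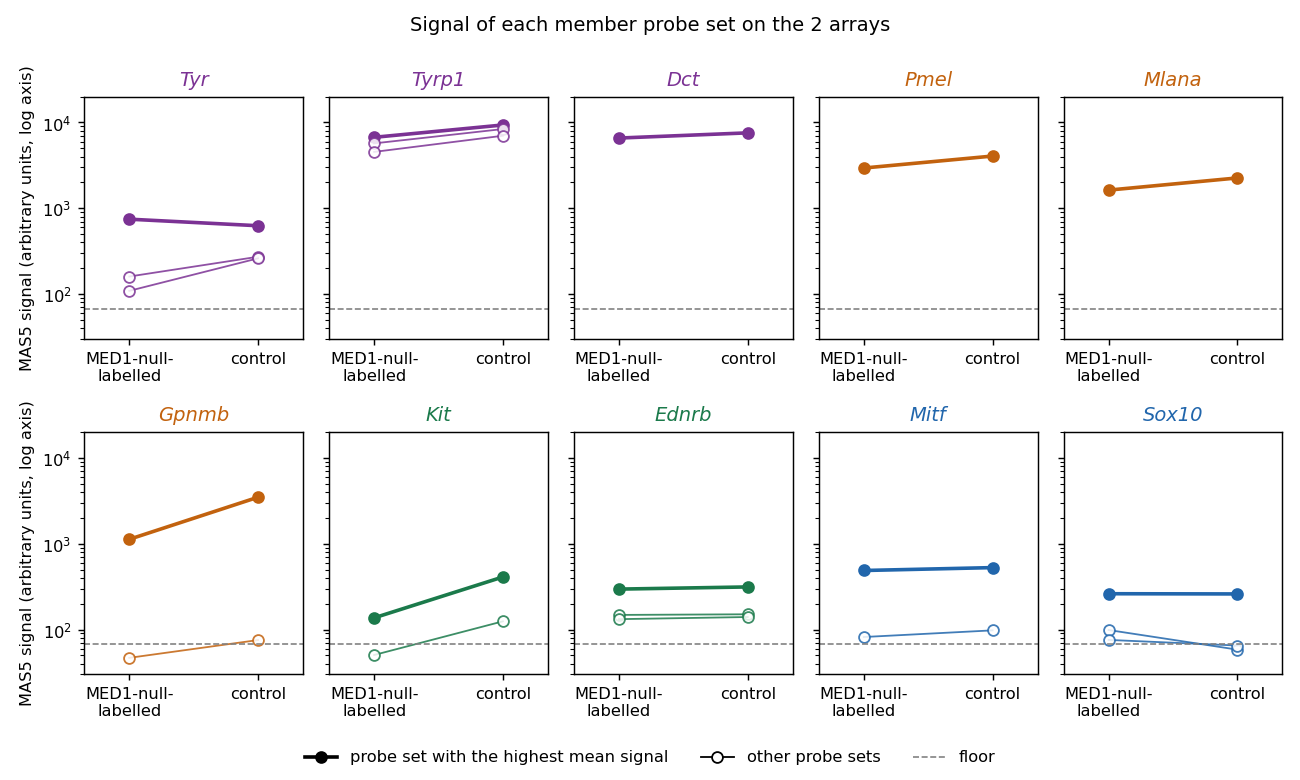
Signal of each member probe set (MAS5 signal, log axis) on the MED1-null-labelled array, left, and the control array, right. Filled points are the brightest probe set of the gene, open points its other probe sets, and the dashed line is the floor of 67.7. Gpnmb and Kit have the steepest lines, and the 3 Tyr lines do not run the same way.

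Tyrp1 encodes an oxidase that acts late in the synthesis of brown-black melanin. Its probe sets read 6715, 5706 and 4540 on the MED1-null-labelled array, against 9346, 8383 and 7003 on the control array. All 3 were lower on the MED1-null-labelled array, by 1.39-fold, 1.47-fold and 1.54-fold, with log2 ratios from -0.63 to -0.48. These ratios lay within 0.15 of each other, and each was farther from 0 than the pooled SD between probe sets. Among all measured genes, 60.6% lay within that SD of 0 and 16.6% lay lower. The probe sets read the same arrays, so they are not replicates. Dct encodes dopachrome tautomerase, which acts between the steps of Tyr and Tyrp1. It has 1 probe set, which read 6584 on the MED1-null-labelled array and 7568 on the control array, 1.15-fold lower and within the pooled SD between probe sets.

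Tyr encodes tyrosinase, which catalyses the first and rate-limiting step of melanin synthesis. Its brightest probe set read 746.8 on the MED1-null-labelled array and 626.6 on the control array, 1.19-fold higher. The next brightest read 160.4 and 272.7 on the same arrays, 1.70-fold lower. The third read 109.2 on the MED1-null-labelled array and 261.2 on the control array, 2.39-fold lower. Their log2 ratios of 0.25, -0.77 and -1.26 spanned 1.51 units, against a pooled SD of 0.31, so the files give Tyr no single direction. The median of the 3 was -0.77. The suffix of the first marks probes that match several transcripts of a gene. Where each probe set lies on the transcript was not used here.

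Pmel encodes the protein whose fibrils form the scaffold on which melanin is laid down. It read 2946 on the MED1-null-labelled array and 4062 on the control array, 1.38-fold lower. Mlana, the melanoma antigen MART-1, is a small membrane protein of early melanosomes that binds the PMEL protein. Its signal was 1629 on the MED1-null-labelled array and 2258 on the control array, 1.39-fold lower. Tyrp1, Pmel and Mlana thus had log2 ratios of -0.48, -0.46 and -0.47 by the probe set used, a spread far under the pooled SD between probe sets. Of all measured genes, 9.77% had a ratio as low as that of Tyrp1, 10.2% as low as that of Pmel and 9.93% as low as that of Mlana.

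Gpnmb, a membrane glycoprotein of melanosomes that macrophages and osteoclasts also make, was lower by more than the enzymes when each gene took its brightest probe set. Its brighter probe set read 1125 on the MED1-null-labelled array against 3480 on the control array, 3.09-fold lower (log2 ratio -1.63). Only 63 of the 11621 measured genes, 0.542%, had a ratio as low or lower. The dimmer probe set read 46.8 and 75.4 on the same arrays, the first below the floor, which makes it at least 1.11-fold lower. The dimmer probe set reached the floor on the control array only, so its ratio could not lie above 0, and it lies too near the floor to give a size. The median of both ratios, -0.89, takes in that bound and is therefore a bound too. At the bound it falls short of 2-fold and is near that of the Tyr probe sets, -0.77, but whether it reaches 2-fold is not known. By the probe set used, the median of Tyr, Tyrp1, Dct, Mlana and Pmel was -0.46. The log2 ratio of Gpnmb was a further 1.17 units lower (log2 -1.17, or 2.24-fold).

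**Figure D2:**
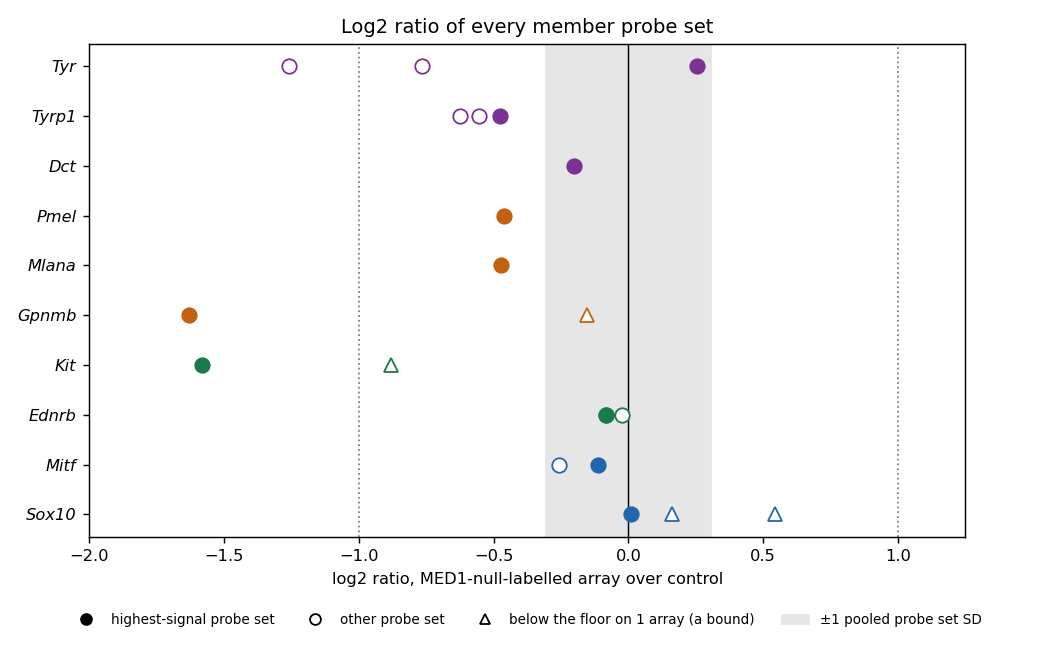
Log2 ratio of every member probe set, the MED1-null-labelled array over the control array, with the members down the page. Filled symbols are the brightest probe set of each gene, triangles are bounds with 1 array below the floor, dotted lines mark 2-fold and the grey band is 1 pooled SD (0.31) on either side of 0. Gpnmb and Kit lie at -1.63 and -1.58, and Tyr spans from -1.26 to 0.25.

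Kit encodes the receptor tyrosine kinase for stem cell factor, which melanocyte precursors need to migrate and survive. Its brighter probe set read 136.8 on the MED1-null-labelled array and 409.5 on the control array, 2.99-fold lower (log2 ratio -1.58). The other read 50.5, below the floor, on the MED1-null-labelled array and 124.6 on the control array, at least 1.84-fold lower. The dimmer Kit probe set reached the floor on the control array only, so its ratio could not lie above 0. By the brighter Kit probe set, 75 measured genes (0.645%) had a ratio as low or lower. With a signal of 136.8, Kit stood nearer the floor than Gpnmb did. Ednrb encodes the receptor for endothelins that acts on melanocyte precursors. Its probe sets read 295.8, 148.0 and 132.1 on the MED1-null-labelled array, against 313.5, 150.5 and 139.9 on the control array. All 3 lay within 1.06-fold, with log2 ratios from -0.08 to -0.02. The difference between the receptors, 3-fold lower for Kit and nearly equal signals for Ednrb, could not be tested with 1 array per group.

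Mitf and Sox10, the lineage transcription factors, had nearly equal signals on both arrays. The brighter Mitf probe set read 487.3 on the MED1-null-labelled array and 526.6 on the control array, 1.08-fold lower, and the dimmer read 81.8 and 97.8, 1.20-fold lower. Both Mitf ratios lay within the pooled SD of 0. The brightest Sox10 probe set read 261.3 on the MED1-null-labelled array and 259.9 on the control array, a log2 ratio of 0.01 that turned to -0.05, -0.07 and -0.10 when the arrays were rescaled by their median ratio, by quantiles or by a lowess curve. The other Sox10 probe sets read 98.7 against 58.3 and 75.7 against 65.1, with the control array below the floor in both. They were at least 1.46-fold and at least 1.12-fold higher on the MED1-null-labelled array, with signals too near the floor to rank. With only that array at the floor, their ratios could not lie below 0. By their brightest probe sets, the genes of the M-box factor itself and of its activator were thus nearly level, while Tyrp1, Pmel and Mlana were lower. Dct, whose promoter holds the core, had a log2 ratio of -0.20, between those of the Mitf probe sets (-0.11 and -0.26), and Tyr went both ways. No promoter of Pmel or Mlana was found, so the core was not searched there.

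**Figure D3:**
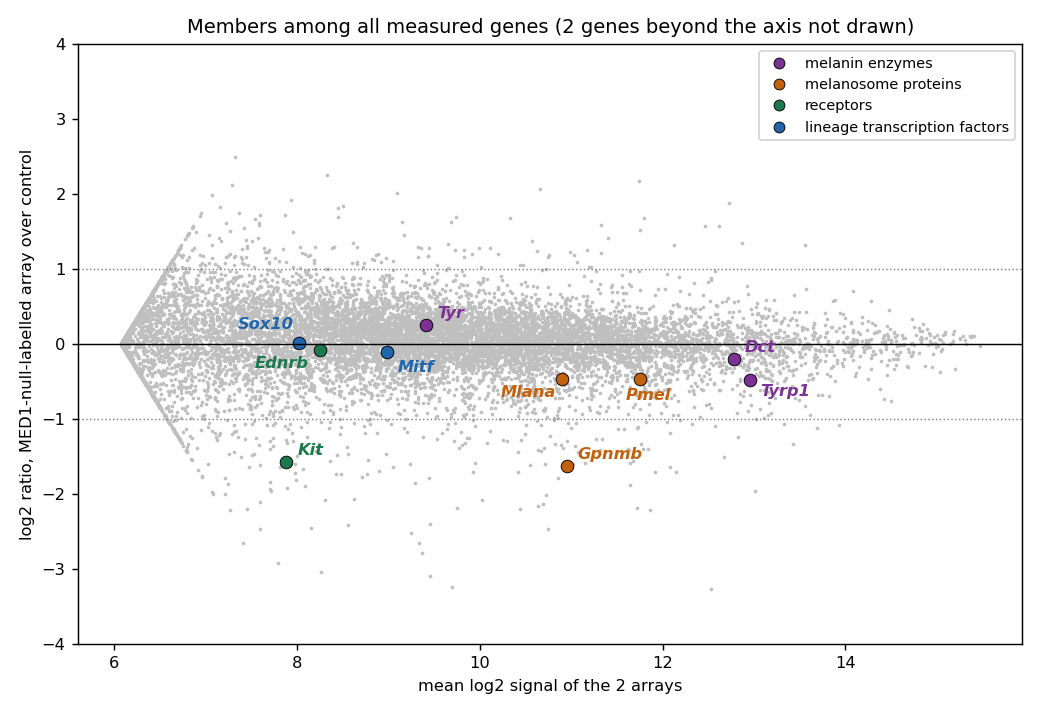
Log2 ratio, the MED1-null-labelled array over the control array, against the mean log2 signal of both arrays for the 11621 measured genes (grey; 2 genes beyond the axis are not drawn) and the 10 members (coloured by role). Gpnmb and Kit lie below the dotted 2-fold line, while Tyrp1, Pmel and Mlana lie at a like height over a range of signal.

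The 226 measured genes whose promoter held TCATGTG had a median log2 ratio of 0.04, beside 0.06 over all measured genes. Of them, 5 were at least 2-fold lower (2.21%, against 2.23% of all measured genes) and none was at least 2-fold higher. The 5, picked out after their values were seen, were Clcn5, Rasgef1b, Scd3, Depdc1a and Trim40. Both members beyond 2-fold, Gpnmb and Kit, were among those with no core in the window printed or searched above. Of 32851 promoters, only 3.25% held the core, so its absence from both does not set them apart from most genes.

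The remaining pigment genes were read from lists of the pathway. The 4 melanocyte markers that are not members are Slc45a2 and Oca2, which set melanosome ion balance and pH, the melanocortin receptor Mc1r and the melanosome receptor Gpr143. Slc45a2 read 447.5 on the MED1-null-labelled array and 537.1 on the control array, Mc1r 178.0 and 209.3, and Oca2 207.9 and 199.8. Gpr143 read 50.9, below the floor, on the MED1-null-labelled array and 90.9 on the control array, at least 1.34-fold lower. All 4 lay within 2-fold, 3 below 0 and 1 above, with a median log2 ratio of -0.25. Of these, Gpr143 reached the floor on the control array only, so its ratio could not lie above 0. Trpm1, a gene of the melanosome list below chosen after its value was seen, went the other way. It read 198.8 on the MED1-null-labelled array and 104.2 on the control array, 1.91-fold higher. The Slc45a2 probe sets differed in direction, at log2 ratios between -0.26 and 0.28.

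Of 30 genes of melanosome biogenesis, channels and transport, 26 were measured, 24 lay within 2-fold, 16 were below 0 and 10 above, and the median log2 ratio was -0.12. At least 2-fold lower was 1 gene and at least 2-fold higher 1 (3.85% each), near the 2.23% and 1.63% of all measured genes. Of all measured genes, 42.9% lay below 0. Mlph, the melanophilin that tethers melanosomes to the myosin that carries them, read 133.1 on the MED1-null-labelled array and 327.1 on the control array, 2.46-fold lower. Its probe sets ran from -1.54 to -1.30 in log2 ratio. Syt4, a synaptotagmin, read 164.6 on the MED1-null-labelled array and 2.3, below the floor, on the control array, at least 2.43-fold higher, with probe sets from 0.38 to 1.28. By the probe set used, Syt4 reached the floor on the MED1-null-labelled array only, so that ratio could not lie below 0. The partners of melanophilin, Rab27a and Myo5a, chosen after their values were seen, read 145.1 against 189.2 (1.30-fold lower) and 1203 against 1338 (1.11-fold lower). The Myo5a probe sets went both ways, from -0.15 to 0.13 in log2 ratio. Of the 3 genes of this transport complex, Mlph alone was beyond 2-fold. Of 20 cathepsin and lysosome genes, 16 were measured and none was 2-fold apart, with a median of -0.12 that was 0.05 when each gene took the median of its probe sets. Hexa, a subunit of beta-hexosaminidase, had a log2 ratio of 0.59 and Galns, a lysosomal sulfatase, one of -0.48.

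Of 28 melanocyte receptors, lineage factors and MITF partners, 20 were measured, 19 lay within 2-fold and the median was -0.10. At least 2-fold lower was 1 gene (5%) and none was at least 2-fold higher, beside 2.23% and 1.63% of all measured genes. Pax3, a transcription factor that acts with SOX10 on Mitf, read 74.4 on the MED1-null-labelled array and 173.8 on the control array, 2.34-fold lower. Both of its probe sets were lower, with log2 ratios of -1.22 and -0.56, at signals near the floor. The list's median was 0.22 with the floor moved up to 434.6, the 75th percentile of signal.

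Signals that reach melanocytes from keratinocytes and the dermis went both ways. Of 25, 15 were measured, 4 were at least 2-fold lower, 1 at least 2-fold higher and 10 between, beside 2.23% and 1.63% of all measured genes, with a median of -0.02 that was 0.01 with the floor at 434.6. Edn1, the endothelin that keratinocytes secrete, read 2612 on the MED1-null-labelled array and 1149 on the control array, 2.27-fold higher. Il1a, an interleukin that skin cells release on injury, read 2871 against 6524, 2.27-fold lower, and Bmp6, a bone morphogenetic protein, read 214.4 against 439.5, 2.05-fold lower. The growth factors Fgf7 and Csf2 were below the floor on the MED1-null-labelled array, at 49.2 against 150.7 and 4.6 against 142.0 on the control array, at least 2.23-fold and at least 2.10-fold lower. Both are among the 4 counted lower, but they reached the floor on the control array only, so their ratios could not lie above 0. Kitl, which encodes the ligand of KIT and was chosen after its value was seen, read 5488 on the MED1-null-labelled array and 7701 on the control array, a log2 ratio of -0.49, with the lowest of its probe sets at -0.83. Edn3, the endothelin that acts through EDNRB in this lineage and was chosen in the same way, read 124.2 and 44.1 on these arrays, the second below the floor. That makes it at least 1.83-fold higher, a ratio that could not lie below 0. Its probe sets went both ways, from -0.12 to that bound of 0.88. Kit and its ligand were therefore both lower on the MED1-null-labelled array, the ligand by less than 2-fold.

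**Figure D4:**
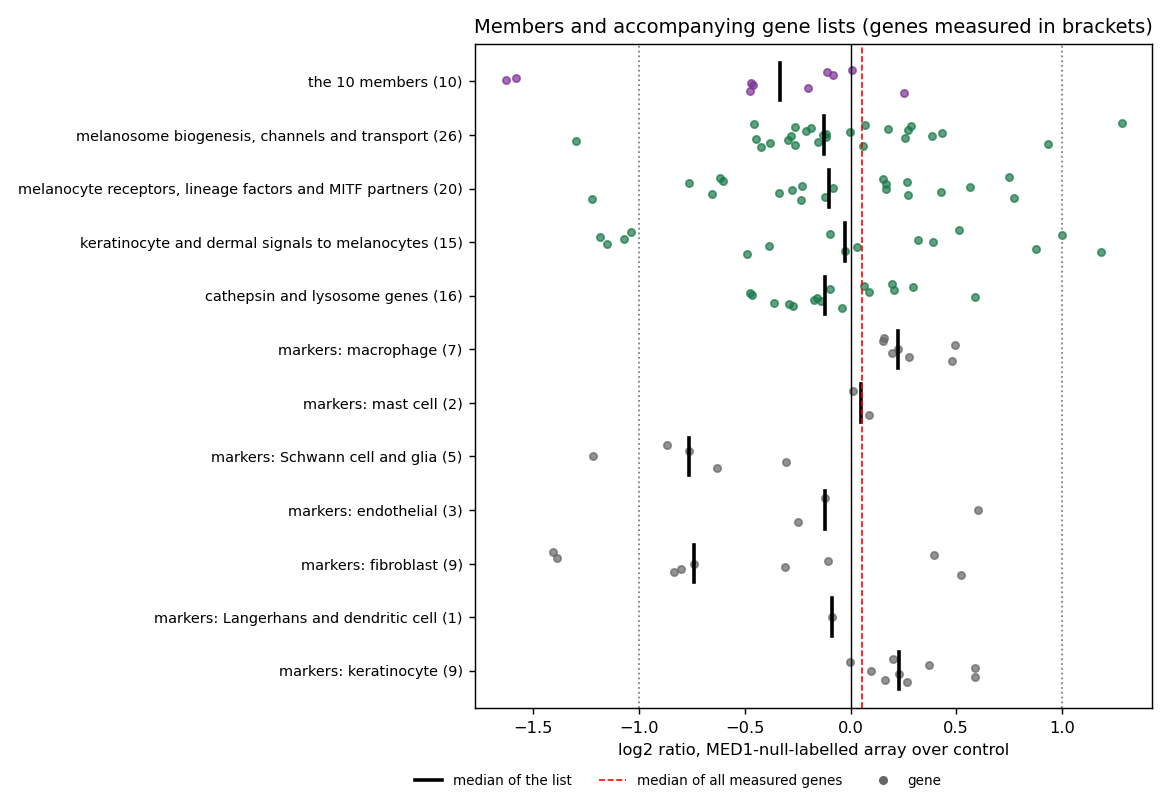
Log2 ratios, the MED1-null-labelled array over the control array, of the 10 members, of 4 accompanying lists and of marker lists of other cell types, with the number of genes measured in brackets. The 4 lists are melanosome genes, melanocyte receptors and lineage factors, signals to melanocytes from keratinocytes and dermis, and cathepsin and lysosome genes. Each point is a gene by its brightest probe set (bounds are drawn at the bound), the black bar is the median of the list and the red line the median of all measured genes, 0.06. Schwann cell and fibroblast markers have the lowest medians, -0.76 and -0.74, both bounds.

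Several members are also made by other cell types, so markers of these were read beside them. The melanocyte list itself, 12 genes of which 8 are members, summed to 20391 on the MED1-null-labelled array and 26093 on the control array, a ratio of 0.781. Keratinocyte markers were at high signal on both arrays, with Krt5 at 32220 against 26821, Krt14 at 36849 against 32905 and Trp63 at 11736 against 7798, and 9 of 12 were measured. Their summed signal was 1.17 times as high on the MED1-null-labelled array, with 8 of the 9 above 0 and a median of 0.23. Krt1, a keratin of differentiating cells, and Krt15, a basal keratin, read below the floor on both arrays, at 56.8 against 28.2 and 3.8 against 12.5, and were picked out after their values were seen. The keratinocyte markers Krt5, Krt14 and Trp63 thus stood far above the floor on both arrays, as did the pigment genes Tyrp1, Dct, Pmel and Mlana.

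For Kit, mast cells are another source. Of 11 mast cell markers, 2 reached the floor (Tpsb2 and Gata2, each on the MED1-null-labelled array only), and the defining genes Cpa3, Mcpt4 and Cma1 read 4.3, 4.7 and 34.5 on the MED1-null-labelled array and 26.3, 13.1 and 10.2 on the control array, all below the floor. The mast cell list summed to 311.6 on the MED1-null-labelled array and 314.7 on the control array, sums made up mostly of signals below the floor. For Gpnmb, macrophages are another source. Of 17 macrophage markers, 7 were measured and all 7 were above 0, with a median of 0.22 and summed signals of 3750 on the MED1-null-labelled array against 3117 on the control array. Adgre1, C1qb and Trem2 reached the floor on the MED1-null-labelled array only, so their ratios could not lie below 0. Most of both sums came from Cd68 (2799 against 2446), a lysosomal protein abundant in macrophages. Csf1r read 228.9 on the MED1-null-labelled array and 164.0 on the control array, with probe sets on both sides of 0, Adgre1 82.0 and 44.1, and Ptprc 7.8 and 27.7, below the floor on both. The part of mast cells and macrophages in the Kit and Gpnmb signals was not tested. Langerhans and dendritic cell markers were mostly below the floor, with 1 of 8 measured and Cd207 at 7.3 against 5.8, Cd74 at 58.9 against 71.9 and H2-Ab1 at 40.3 against 23.1.

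Schwann cells share Sox10 with melanocytes, and 5 of 12 of their markers were measured. All 5 (Mbp, Pmp22, Ngfr, Foxd3 and Cnp) were below 0 by the probe set used, with a median of -0.76 that is the bound of Foxd3, below the floor on the MED1-null-labelled array. Ngfr and Foxd3 reached the floor on the control array only, so their ratios could not lie above 0. The Cnp probe sets went both ways, from -0.87 to 0.29. In all, 1 of the 5 was at least 2-fold lower (20%, against 2.23% of all measured genes). The list summed to 3142 on the MED1-null-labelled array and 4839 on the control array. Most of it came from Mbp (1918 against 2971) and Pmp22 (964.6 against 1191), which is also made outside the nervous system. Ngfr, the neurotrophin receptor, read 13.6 and 157.7, at least 2.33-fold lower, while Cdh19, S100b and Gap43, glial genes chosen after their values were seen like Pmp22, were below the floor on both arrays. Endothelial markers, read for Ednrb, had 3 of 10 measured (Kdr, Egfl7 and Cldn5), and Pecam1 (7.6 against 42.1), Cdh5 (54.9 against 34.9) and Tek (1.0 against 30.4) were below the floor on both. Their list summed to 655.3 on the MED1-null-labelled array and 615.9 on the control array, with Egfl7 (346.9 against 228.7, probe sets from -0.63 to 0.60) as its largest term and the other signals near or below the floor.

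Fibroblast markers went both ways. Among those that reached the floor on both arrays, Pdgfra, Sparc and Vim were below 0 and Col1a2 and Col6a3 above. Col3a1, Dcn, Twist2 and Thy1 reached it on the control array only, so their ratios could not lie above 0. Of 14, 9 were measured, 2 were at least 2-fold lower (22.2%, against 2.23% of all measured genes), 7 were below 0 and 2 above (Col1a2 and Col6a3), the median was -0.74, a bound, since it is that of Twist2, which was below the floor on the MED1-null-labelled array, and the list summed to 2654 on the MED1-null-labelled array against 6231 on the control array. Sparc (1034 against 2709, 2.62-fold lower) and Vim (979.7 against 2602, 2.66-fold lower) were beyond 2-fold. Both genes are made by many non-epithelial cells. The median was -1.09, -1.40 and -1.07 with the floor at 18.1, at 434.6 or absent. Of the defining genes, Col1a1 read 14.1 and 42.3, below the floor on both, Col1a2 was 1.44-fold higher (115.3 against 80.3), and Col3a1 read 35.5 against 120.8, at least 1.78-fold lower. The part of fibroblasts and Schwann cells in the lower Gpnmb and Kit signals was not tested.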

How the data were processed

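Total RNA of 2 primary keratinocyte cultures was labelled with biotin and hybridised to Affymetrix mouse 3′ expression arrays. The values the authors deposited are linear signal intensities, 1 for each probe set, computed with MAS5 per the submitters' processing notes. The software version is not given in the sources used here. From the values, each array was scaled to a mean of 500.0 after trimming at both ends. Of 45101 probe sets, 64 are controls, and GEO's platform annotation gives 34945 of the rest 1 symbol, 932 several and 9160 none. Entrez IDs matched to RefSeq genes changed 0 symbols. Genes were named only from probe sets with 1 symbol.

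Signals below 67.7, the median over non-control probe sets of both arrays, were raised to it, log2 was taken, and the control array was subtracted from the MED1-null-labelled array. Each gene was represented by its probe set of highest mean signal and counted as measured where either array reached the floor. Genes at least 2-fold apart were counted. There was no test, since each group has 1 array. The counting was tested on simulated data, with planted changes larger than 2-fold in genes well above the floor. That test does not cover smaller changes or dimmer genes. The members and lists were chosen with earlier results of these data known. The text names all members, list genes beyond 2-fold (otherwise the 2 farthest from 0), the first 3 genes of marker lists, those said to be chosen after their values were seen and, also chosen after their values were seen, marker genes that make up a count of 5 or fewer or a large part of a sum, or that hold a median. Listed genes without a probe set of 1 symbol were not analysed here. Promoter motifs were searched on both strands. Alternatives changed the floor, the scaling between arrays, the probe set rule and the fold threshold. Python 3.11.15, numpy 2.4.6, pandas 2.3.3 and statsmodels 0.14.6 were used.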

Additional observations from a re-analysis of the deposited data

How the results depend on the processing

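Each member kept its direction under the alternatives that measured it, with 2 exceptions. Sox10 went below 0 under all 3 rescalings, and Tyr read -0.77 in log2 ratio by the median of its probe sets and when probe sets with a suffix for shared sequence were left out. Kit ran from -1.69 to -1.23 and Gpnmb from -1.69 to -0.89, the higher ends being the median over probe sets. Both higher ends take in a dimmer probe set with 1 array below the floor, so they are bounds. Whether Gpnmb reaches 2-fold by that median is not known. The members' median ran from -0.47 to -0.30. The count of members at least 2-fold lower was 2 at 1.5-fold as well, where 7.32% of measured genes were lower and 7.80% higher, and 1 under 3 settings: Gpnmb with the floor at 434.6, where 7 members were measured and Kit was not, Kit with the median over probe sets, and Gpnmb without shared-sequence probe sets, where Kit and Sox10 have none left. None was higher in any of these settings. Among the pathway lists, the counts lower and higher were as follows. Genes of melanosome biogenesis had 0 lower and 0 higher with the floor at 434.6, and 0 higher by the median over probe sets. Receptors and lineage factors had 3 lower and 1 higher with the floor at 18.1, 2 and 1 with no floor, 0 lower by the median over probe sets, and with the floor at 434.6 a median of 0.22 and 0 lower. Signals to melanocytes had 5 lower and 3 higher with the floor at 18.1, 6 lower and 4 higher with no floor, and 0 higher without shared-sequence probe sets, and 1 lower with the floor at 434.6. Lysosome genes had 1 lower with the floor at 18.1 and with no floor. Over all genes the shares at least 2-fold lower and higher also went up, to 5.82% and 6.98% with the floor at 18.1 and to 9.81% and 11.4% with no floor. Lower floors admit noisy MAS5 values, and signal over background limits the genes near 67.7, such as the dimmer probe sets of Kit, Sox10 and Gpnmb. No paired analysis was possible because each group has 1 array and no result comes from a test.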
